A study of Mus musculus with 4 samples.

Results

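The 9 genes described here encode proteins of the interstitial matrix of the lung: the collagen chains Col1a1, Col1a2, Col3a1, Col5a1 and Col6a1, fibronectin (Fn1), elastin (Eln), the small leucine-rich proteoglycan decorin (Dcn) and the elastic-fibre protein Mfap4. They were taken by name, and all 9 were found among the 20076 genes of the matrix. Single-cell RNA-seq of whole dissociated lung was compared between 2 libraries labelled WT (ERG fl/fl mice without Cre) and 2 labelled ERG CKO (CDH5-CreER(T):ERG fl/fl mice, in which a tamoxifen-inducible Cre is driven from an endothelial promoter), to ask whether loss of the transcription factor ERG from the endothelium is accompanied by a fibrotic matrix programme. Mice of both groups, of mixed sex and on a C57/BL6 background, received 5 injections of 0.5 mg tamoxifen, and lungs were taken 90 days later. Each library came from 1 mouse, and the ages are not given in the sources used here.

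Interstitial collagens are made as chains that assemble into triple helices. Types I and III form the load-bearing fibrils, type V sets how fibrils start and how wide they grow, and type VI forms a beaded network around cells. Elastin gives the lung its recoil and is laid onto microfibrils with the help of proteins such as MFAP4. Fibronectin is deposited early in repair and supports the assembly of collagen fibrils, and decorin coats fibrils and limits their thickness. In fibrosis these genes are classically raised in fibroblasts, and alveolar fibroblasts and pericytes are regarded as sources of matrix-producing cells.

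On GRCm38.p6, Col1a1 lies at chr11:94936224-94953042, Col1a2 at chr6:4505618-4541543, Col3a1 at chr1:45311538-45349706, Col5a1 at chr2:27886381-28039510 and Col6a1 at chr10:76708792-76726044. Fn1 lies at chr1:71585473-71653280, Eln at chr5:134702595-134747368, Dcn at chr10:97479500-97518163 and Mfap4 at chr11:61485431-61488708. UMIs (unique molecular identifiers, each marking 1 captured RNA molecule) were counted per gene, so exons and isoforms were not separated.

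Of the 9 genes, 4 had a RefSeq promoter window of 250 bases before to 50 after the annotated start (Col1a2, Col3a1, Col5a1 and Col6a1), and Col1a1, Fn1, Eln, Dcn and Mfap4 were not matched. The windows of Col1a2 (chr6:4505368-4505667, plus strand) and Col3a1 (chr1:45311288-45311587, plus strand) are shown because these 2 fibril-forming chains were counted together in the same cell classes. Capitals mark CCAAT and TATAAA on either strand, and the windows are written 5′ to 3′.
Col1a2: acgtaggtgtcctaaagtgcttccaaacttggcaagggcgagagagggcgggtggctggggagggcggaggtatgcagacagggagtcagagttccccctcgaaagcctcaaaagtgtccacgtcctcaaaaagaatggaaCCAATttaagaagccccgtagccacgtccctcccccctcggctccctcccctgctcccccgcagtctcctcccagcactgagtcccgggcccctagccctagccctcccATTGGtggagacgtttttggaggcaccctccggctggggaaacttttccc
Col3a1: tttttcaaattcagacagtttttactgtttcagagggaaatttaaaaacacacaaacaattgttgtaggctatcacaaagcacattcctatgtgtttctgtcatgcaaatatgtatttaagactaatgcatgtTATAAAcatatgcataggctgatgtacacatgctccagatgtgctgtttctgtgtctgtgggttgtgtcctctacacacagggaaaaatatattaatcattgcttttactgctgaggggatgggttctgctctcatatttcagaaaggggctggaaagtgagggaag
CCAAT or its reverse complement occurred 2 times in the Col1a2 window and in 37.4% of 32851 promoter windows of the same length. It was not among the letters of the other 3. TATAAA occurred once, in the Col3a1 window, against 13.6% of all windows. GGAA, the core that ETS factors such as ERG bind, occurred in all 4 windows, 5 times each in Col1a2 and Col3a1, 4 times in Col5a1 and 3 times in Col6a1, and in 96% of all windows.

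Libraries held 1852 to 3097 cells and 11263911 to 18646776 UMIs each. In ECs (endothelial cells), Erg itself stood at 86.0 and 86.4 CPM (UMIs of a gene scaled to a common total per class and library) in WT 1 and 2, against 104 and 83.7 CPM in ERG CKO 1 and 2. Gene counts therefore did not separate the genotypes and cannot show whether a floxed exon is missing, so every direction below is between libraries as labelled. WT 1 and ERG CKO 1 expressed Xist and WT 2 and ERG CKO 2 expressed Y-linked genes, so each group held 1 library of each kind. Clusters were named by markers as fibroblast-like (413 cells, called fibroblasts from here), mural-like (175 cells, mural cells) and endothelial-like (2503 cells, ECs). Pdgfra marked fibroblasts at 548 to 963 CPM, Pdgfrb marked mural cells at 726 to 1403 CPM, and Cdh5 marked ECs at 1452 to 1881 CPM. Mural cells were pericyte-like, and of the smooth-muscle list Cnn1 had 1 UMI and Pln none, while Myh11 was at 74.0 to 133 CPM, Des at 303 to 534 CPM and the list summed to 414 to 668 CPM. A cluster of 907 shallow cells (median 1003 UMIs) with endothelial markers stayed unnamed and was kept out of all classes.

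Each gene had its own distribution over the 15 named cell classes. Levels are not compared between genes. Fibroblasts held 82.8% of all Col1a1 UMIs, 80.8% of Col1a2, 86.1% of Col3a1, 83.2% of Mfap4 and 97.6% of Dcn. Mural cells were the next source of the type I and III chains, with 10.5% of Col1a1, 12.3% of Col1a2 and 7.49% of Col3a1 UMIs. Col5a1 UMIs lay in fibroblasts (52.1%), ECs (20.3%) and mural cells (17.4%). Col6a1 was also found in epithelial cells, which held 15.8% of its UMIs, and its level ran from 238 CPM ± 72.9 in fibroblasts and 189 CPM ± 127 in mural cells to 51.0 CPM ± 20.04 in epithelial cells (SD, n = 4 libraries), so that fibroblasts and mural cells did not differ beyond their spread. The same held for Col5a1, at 67.3 CPM ± 8.32 in fibroblasts and 65.97 CPM ± 23.4 in mural cells.

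Fn1 and Eln had sources outside the fibroblasts. Fn1 UMIs lay in alveolar macrophages (37.9%), fibroblasts (25.1%) and monocytes (24.5%), and its level was 604 CPM ± 121 in fibroblasts, 318 CPM ± 368 in interstitial macrophages, 289 CPM ± 68.3 in monocytes and 238 CPM ± 99.1 in alveolar macrophages (SD, n = 4). The 3 myeloid levels overlapped. Eln UMIs were split between fibroblasts (46.8%) and ECs (41.4%), at 473 CPM ± 186 and 77.0 CPM ± 34.3. In T cells, which should lack these genes, the means were 0 (Col5a1) to 1.92 CPM (Fn1), a measure of free RNA in the suspension.

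**Figure D1:**
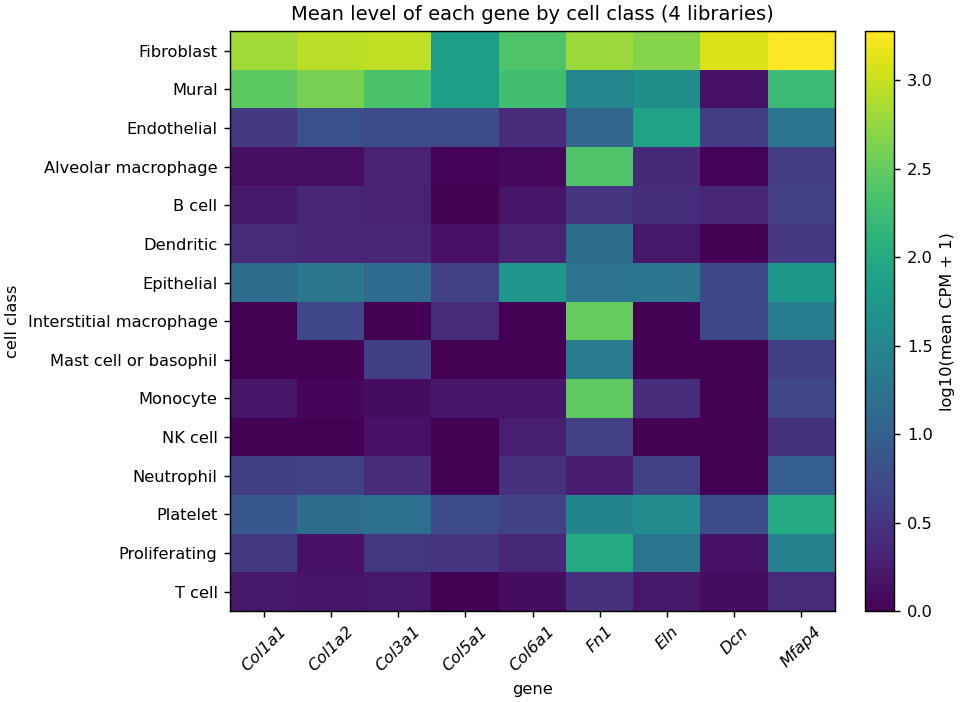
Mean CPM over 4 libraries of each gene (x axis) in each of the 15 named cell classes (y axis), coloured as log10(mean CPM + 1). Fibroblasts are the brightest row for every gene, mural cells follow for the collagens, Eln extends to ECs, and Fn1 extends to macrophages and monocytes.

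Outside the matrix lists, the genes whose levels followed the 9 most closely over the 15 classes were Gpr153 (Pearson r = 0.977 between its log2(mean CPM + 1) and the mean over the 9 genes), Fgf2 (0.974), Serping1 (0.970), Gm19426 (0.969) and Gas1 (0.966). These are descriptions over classes that share libraries and depth.

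No collagen was called higher in fibroblasts of the libraries labelled ERG CKO. The fibril-forming chains Col1a1, Col1a2 and Col3a1 and the microfibrillar chain Col6a1 had estimates below 0, and none passed the test. Dcn alone was called, and it was lower. Of 7831 genes tested in fibroblasts, 52 were called (0.664%, edgeR, Benjamini-Hochberg adjusted p of at most 0.05), 36 higher and 16 lower, and of the 9 matrix genes 1 was called. The median log2 fold change of the 9 was −0.50, beside 0.00 over all genes tested, and it was −0.25 without WT 1 and −0.31 with subclusters carrying EC transcripts left out.

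Col1a1, the alpha 1 chain of type I collagen, was counted in fibroblasts at 945 and 589 CPM in WT 1 and 2, against 492 and 614 CPM in ERG CKO 1 and 2. The groups overlapped, with WT 1 the highest (log2 fold change −0.50, SE 0.24, adjusted p = 0.596, edgeR). Its partner chain Col1a2 was at 1226 and 841 against 707 and 655 CPM, and the 2 groups did not overlap (−0.60, SE 0.21, adjusted p = 0.415, edgeR). Without ERG CKO 1, Col1a2 was called, at −0.71 (adjusted p = 0.0428, edgeR). In such a fit the lone library of a group is assumed to vary like the other group, and the p rests on that here and wherever 1 library is left out. Col3a1, the type III chain, was at 1179 and 1008 against 680 and 824 CPM, again without overlap (−0.55, SE 0.19, adjusted p = 0.390, edgeR). Col6a1 was at 338 and 243 against 171 and 199.5 CPM, with both libraries labelled ERG CKO lower (−0.69, SE 0.24, adjusted p = 0.414, edgeR). Col5a1 was at 71.7 and 71.1 against 54.8 and 71.6 CPM, so that 3 of the 4 libraries were close to each other (−0.26, SE 0.28, adjusted p = 0.913, edgeR).

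The other matrix genes of fibroblasts lay on either side. Fn1 was at 581 and 444 against 717 and 675 CPM, higher in both libraries labelled ERG CKO, with an estimate of 0.44 (SE 0.20, adjusted p = 0.569, edgeR). Eln was at 493 and 262.5 against 424 and 711 CPM, which overlapped (0.53, SE 0.30, adjusted p = 0.722, edgeR), and it was called without ERG CKO 1 (0.84, adjusted p = 0.0306, edgeR). Mfap4 was at 1922 and 1730 against 1960 and 1934 CPM, a log2 fold change of 0.10 (SE 0.16, adjusted p = 0.954, edgeR).

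**Figure D2:**
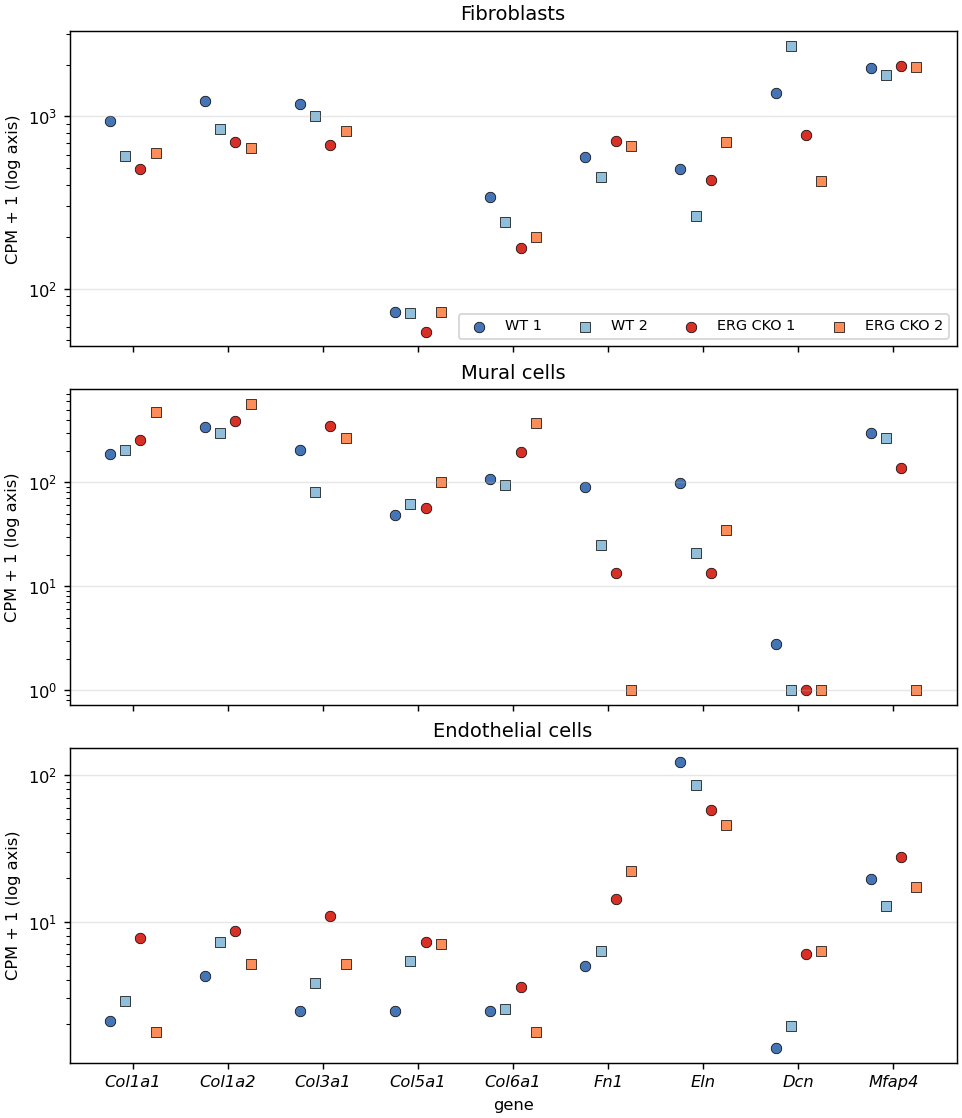
CPM + 1 on a log axis (y) of each gene (x) in fibroblasts, mural cells and ECs, with 1 point per library. In fibroblasts both ERG CKO points of Dcn, Col1a2, Col3a1 and Col6a1 lie under both WT points, and in ECs both ERG CKO points of Eln lie under and those of Fn1 over the WT points. A point at 1 is a library with no UMI.

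Dcn fell in fibroblasts, from 1358 and 2578 CPM in WT 1 and 2 to 782 and 419 CPM in ERG CKO 1 and 2 (log2 fold change −1.65, SE 0.31, adjusted p = 0.0234, edgeR). Decorin RNA came from few cells. Cells with a Dcn UMI were 23.0% and 22.7% of fibroblasts in WT against 15.3% and 15.4% in the libraries labelled ERG CKO, beside at most 0.268% of T cells, at median depths of 2483 to 5109 UMIs in fibroblasts and 5842 to 6385 in T cells. With each cell thinned to 1000 UMIs the shares were 13.3% and 17.7% against 8.46% and 9.52% (15, 13, 47 and 5 shallower cells left out). In ERG CKO 2 the cells with a UMI numbered 4, of which 1 held 69 of the 82 UMIs. The adventitial subtype, the fibroblasts of the cuffs around vessels and airways, held 1017, 958, 726 and 0 Dcn UMIs in WT 1, WT 2, ERG CKO 1 and ERG CKO 2. The subtype numbered 7, 6, 6 and 1 cells in these libraries. Adventitial cells were 5.19% and 8% of fibroblasts in WT against 3.39% and 3.85% in the libraries labelled ERG CKO (exact two-sided permutation p = 0.3333, the smallest that 2 against 2 libraries can give). Within adventitial cells, Dcn was at 16684, 19473 and 13797 CPM in the 3 libraries with more than 1 such cell.

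The call of Dcn held in 9 of 15 alternatives, all with estimates below 0. It was lost without WT 2 (−1.15, adjusted p = 0.0637, edgeR), without ERG CKO 2 (−1.30, adjusted p = 0.677) and under DESeq2 (adjusted p = 0.582). It was also lost with the replicate number, which separated the Xist-expressing from the other libraries, as a block (−1.63, adjusted p = 0.216, edgeR), with at most 10% mitochondrial UMIs (−1.64, adjusted p = 0.0557) and with subclusters carrying EC transcripts left out (−1.19, adjusted p = 0.21).

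The fibroblasts of the groups also differed in other measures. Apart from the fits that left cells out, their part in these values was not tested. The summed level of the fibroblast marker list was 10247 and 9828 CPM in WT against 6407 and 8926 CPM in the libraries labelled ERG CKO. Within it the defining marker Pdgfra was at 963 and 736 against 548 and 772 CPM. Dissociation stress genes such as Fos and Jun summed to 18219 and 19173 against 13332 and 13423 CPM. Platelet markers summed to 83.8 and 78.5 against 465 and 880 CPM, and erythroid markers to 36.4 and 27.0 against 5599 and 81.9 CPM. EC markers summed to 4809 and 6111 against 6450 and 5601 CPM. The share of fibroblasts under 1000 UMIs was 11.1% and 17.3% against 26.6% and 19.2%. With only cells of at least 1000 UMIs, Dcn was still called (−1.63, adjusted p = 0.0426, edgeR).

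To hold the subtype fixed, alveolar fibroblasts were tested alone (120 and 66 WT cells, 166 and 24 ERG CKO cells). Of 7255 genes, 49 were called (0.675%) and of the 9 matrix genes 0, in edgeR and in DESeq2, with Eln and Col6a1 at an unadjusted p under 0.05. The median of the 9 was −0.01, beside 0.00 over all genes tested. Col1a1 was at 523 and 475 against 343 and 599 CPM (−0.12, SE 0.26), Col1a2 at 746 and 561 against 514 and 675 CPM (−0.15, SE 0.23) and Col3a1 at 732 and 644 against 491 and 837 CPM (−0.08, SE 0.25). For each of these chains ERG CKO 1 was the lowest library, and ERG CKO 2 exceeded at least 1 WT library. Eln was at 428 and 189 against 396 and 750 CPM (0.82, SE 0.35, adjusted p = 0.551, edgeR), and was called without WT 1 (1.59, adjusted p = 0.00213) and without ERG CKO 1 (1.23, adjusted p = 0.00124). Dcn was at 54.4 and 118 against 36.5 and 383 CPM, from 39, 40, 37 and 71 UMIs, with ERG CKO 2 the highest (0.97, SE 0.74, adjusted p = 0.855, edgeR). In ERG CKO 2 the cell with 69 Dcn UMIs was among the 24 alveolar cells and held all but 2 of their 71 UMIs. Without ERG CKO 2 the estimate was −1.10, and without ERG CKO 1, where that library stands alone, it was 2.25.

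**Figure D3:**
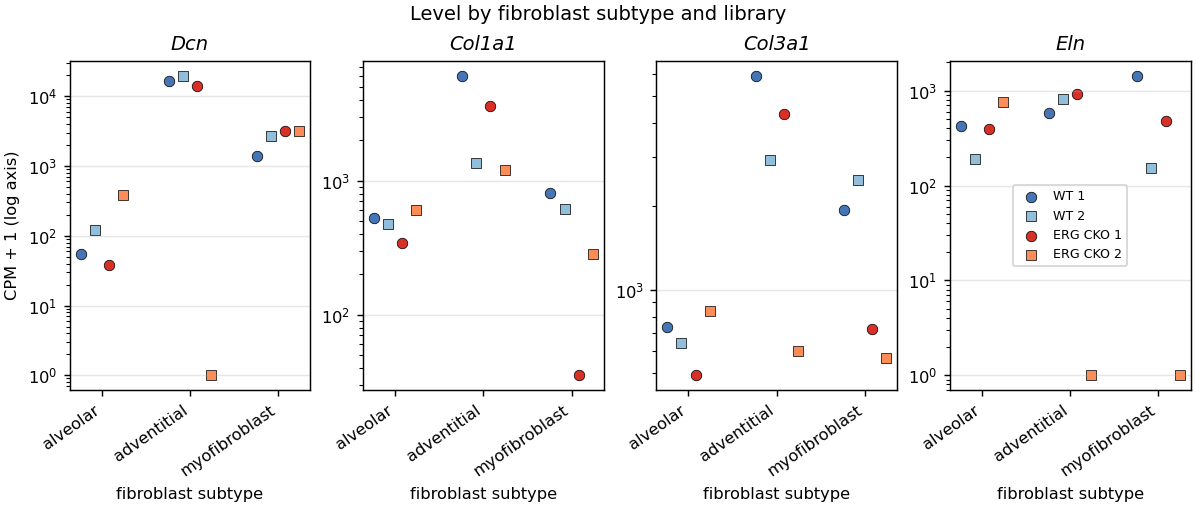
CPM + 1 on a log axis (y) of Dcn, Col1a1, Col3a1 and Eln in the 3 fibroblast subtypes (x), with 1 point per library. Adventitial cells hold Dcn at 13797 to 19473 CPM in 3 libraries and none in ERG CKO 2, where the subtype is 1 cell, and alveolar cells hold 36.5 to 383 CPM.

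The adventitial and myofibroblast-like subtypes were too few to test, at 20 and 17 cells in all, and are described only. In adventitial cells Col1a1 was at 6021 and 1362 CPM in WT and 3611 CPM in ERG CKO 1, and Col3a1 at 5889 and 2927 against 4295 CPM. Myofibroblast-like cells held Col3a1 at 1936 and 2485 against 720 and 568 CPM, from 87, 49, 21 and 2 UMIs. Fn1 had no UMI in myofibroblast-like cells of any library, while alveolar fibroblasts held it at 661 and 502 against 766 and 712 CPM.

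The wider matrix lists in fibroblasts gave few calls, given here beside the 0.664% called over all 7831 genes tested. Of 7 fibrillar collagens tested 0 were called, of 7 other interstitial collagens 1 was called and lower (Col13a1, −1.13, SE 0.23, adjusted p = 0.0485, edgeR), and of 16 elastic fibre genes 0. Among small leucine-rich proteoglycans 3 of 10 were called, all lower: Dcn, Aspn (−2.25, SE 0.44, adjusted p = 0.0348) and Ecm2 (−1.69, SE 0.34, adjusted p = 0.0433; all edgeR). Aspn, asporin, was counted at 226 and 110 against 45.7 and 5.12 CPM. It was also a naming marker of the myofibroblast-like subtype, which made up 5.93% and 4% of fibroblasts in WT against 2.82% and 3.85%. That subtype numbered 8, 3, 5 and 1 cells, and its part in the Aspn value was not tested. Of 23 genes for collagen processing and crosslinking, 0 were called. Of 17 genes of the provisional matrix, Thbs1, a matricellular activator of latent TGF-β, was called and lower, at 582 and 581 CPM against 249.5 and 123 CPM (−1.53, SE 0.27, adjusted p = 0.0192, edgeR). In alveolar fibroblasts alone Col13a1 (−1.23) and Thbs1 (−1.39) were called lower as well, Ecm2 was not (−1.28, adjusted p = 0.481), Aspn did not pass the filter, and Tgfbi, over the filter level in the libraries labelled ERG CKO only, had an estimate of 3.40.

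Of 12 fibroblast activation genes tested, 0 were called in edgeR. The median was 0.68, with 9 above 0. Acta2 (smooth-muscle actin) was at 18.2 and 19.6 CPM in WT against 49.4 and 51.2 CPM (1.41, SE 0.36, adjusted p = 0.135), Tagln (transgelin) at 152 and 199 against 343 and 286 CPM (0.89, SE 0.23, adjusted p = 0.1498) and Ltbp2 at 25.5 and 2.45 against 61.2 and 66.5 CPM (1.86, SE 0.48, adjusted p = 0.140, edgeR). Tnc (tenascin C) overlapped, at 10.9 and 24.5 against 27.4 and 15.3 CPM (0.63, SE 0.51, adjusted p = 0.839, edgeR). The study picked these 4 genes from the present libraries, so their direction is not independent evidence. In alveolar fibroblasts Ltbp2 had an estimate of 1.89 (SE 0.47, adjusted p = 0.107, edgeR) and Acta2, over the filter level in the libraries labelled ERG CKO only, of 2.37.

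In mural cells no gene was called among 4116 tested (0%, edgeR), with 190 at an unadjusted p under 0.05 and 1 called by DESeq2. Of the 9 matrix genes 6 passed the filter on low counts and 0 were called, with a median of 0.55 beside −0.03 over all genes tested. Col1a1 was at 187 and 205 CPM in WT, against 254 and 468 CPM in the libraries labelled ERG CKO, higher in both (0.66, SE 0.35). Col6a1 was at 106 and 92.5 against 192 and 367 CPM, also without overlap (1.19, SE 0.36), as was Col3a1 at 203 and 80.4 against 347 and 267 CPM (1.09, SE 0.44). For the 3 genes the adjusted p was 0.964 (edgeR). Col1a2 was at 338 and 293.5 against 385 and 568 CPM (0.45, SE 0.33), and Col5a1 at 47.6 and 60.3 against 55.8 and 100.2 CPM (0.28, SE 0.48). Counts in ERG CKO 2 were small, at 14, 17, 8, 11 and 3 UMIs for Col1a1, Col1a2, Col3a1, Col6a1 and Col5a1.

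Mfap4 lay the other way in mural cells, at 299.5 and 265 CPM in WT against 136 and 0 CPM in the libraries labelled ERG CKO (−1.41, SE 0.52, adjusted p = 0.964, edgeR), from 170, 66, 22 and 0 UMIs. Fn1 was at 88.1 and 24.1 against 12.4 and 0 CPM, from 50, 6, 2 and 0 UMIs, and Eln at 96.9 and 20.1 against 12.4 and 33.4 CPM, from 55, 5, 2 and 1 UMIs. Neither passed the filter, nor did Dcn, with 1 UMI in WT 1 and none elsewhere. Without ERG CKO 1, which leaves the library at 0, Mfap4 was called (adjusted p = 0.00722), and without ERG CKO 2 Col3a1 was (1.22, adjusted p = 0.0369, edgeR). The fibroblast marker list summed in mural cells to 2572 and 2328 against 1874 and 1870 CPM, with Inmt at 525 and 269 against 112 and 33.4 CPM. Its members did not move together. Hsd11b1, at 691 and 889 against 738 and 902 CPM, and Rarres2, at 440 and 599 against 285 and 668 CPM, overlapped. A mural subcluster with endothelial transcripts held 47.9% and 26.5% of mural cells in WT against 14.6% and 0%. With such subclusters left out, the estimate of Mfap4 was −0.63 (adjusted p = 0.793, edgeR). Stress genes summed to 20511 and 24457 against 14498 and 5677 CPM, and the median depth was 5736 and 3454 against 1979 and 1071 UMIs, whose part in the mural values was not tested. Of 8 activation genes tested 0 were called in edgeR, and Acta2, which passed the filter through the libraries labelled ERG CKO only, was at 21.1 and 28.1 against 273 and 100.2 CPM, from 12, 7, 44 and 3 UMIs.

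In ECs, Fn1 rose and Eln fell. Of 10770 genes tested 347 were called (3.22%, edgeR), 212 higher and 135 lower, and of the 9 matrix genes 7 passed the filter and 2 were called. Col1a1 and Col6a1 did not pass the filter, with 42 and 23 UMIs in all ECs. Dcn and Col3a1 were over the filter level of 3.35 CPM in the libraries labelled ERG CKO only, so that being tested already depended on being high there.

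Of the 9 genes, elastin had the most UMIs in ECs. It was counted at 122 and 84.2 CPM in WT 1 and 2, against 57.0 and 44.7 CPM in ERG CKO 1 and 2 (log2 fold change −1.04, SE 0.21, adjusted p = 0.0450, edgeR), from 335, 271, 263 and 118 UMIs. Both libraries labelled ERG CKO lay under both WT libraries. The share of ECs with an Eln UMI was 27.4% and 23.8% against 23.1% and 16.6%, or 9.47% and 7.54% against 5.42% and 4.34% after each cell was thinned to 1000 UMIs (3, 8, 9 and 9 cells left out). In T cells it was at most 1.19%, in ERG CKO 1, at a median depth of 5842 UMIs beside 5492 in the ECs of that library. Among EC subtypes Eln was highest in arteries, at 694 and 249 against 136 and 232 CPM, and veins, at 413 and 227 against 144 and 112 CPM. In general capillary (gCap) ECs it was at 86.0 and 80.0 against 61.9 and 44.5 CPM, and in aerocytes (aCap ECs) at 9.24 and 1.87 against 13.01 and 12.6 CPM. Both libraries labelled ERG CKO were lower in arteries, veins and gCap ECs and higher in aCap ECs, and whether subtypes differed was not tested. The aCap levels were the lowest of those given, and arteries held 19, 19, 21 and 13 cells. In WT 1 a single EC held 38 of the 335 Eln UMIs.

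The call of Eln in ECs held in 13 of 16 alternatives. It was lost without WT 1 (−0.75, adjusted p = 0.181, edgeR), without WT 2 (−1.30, adjusted p = 0.0673) and with subclusters carrying other lineages left out (−0.95, adjusted p = 0.0580).

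Fn1 stood at 4.01 and 5.28 CPM in ECs of WT 1 and 2, against 13.2 and 21.2 CPM in ERG CKO 1 and 2 (1.80, SE 0.35, adjusted p = 0.0403, edgeR), from 11, 17, 61 and 56 UMIs. Both libraries labelled ERG CKO were higher. A single cell held 8 of the 17 UMIs in WT 2 and another 12 of the 56 in ERG CKO 2. The share of ECs with an Fn1 UMI was 1.71% and 1.29% against 5.36% and 4.67%, while 1.71%, 0.804%, 0.988% and 1.03% of T cells of the 4 libraries held one (median depths of 4020 to 5492 UMIs in ECs and 5842 to 6385 in T cells), so that ECs of WT lay near the T-cell share. After thinning the EC shares were 0.344% and 0.435% against 1.11% and 1.03%. Of the 117 Fn1 UMIs in ECs labelled ERG CKO, arterial ECs held 7 and 29 and lymphatic ECs 13 and 11, from 21 and 13 arterial and 8 and 3 lymphatic cells. In WT the same subtypes held 0 and 1, and 0 and 3 UMIs. The estimate lost its call without WT 1 (1.64, adjusted p = 0.16), without WT 2 (2.02, adjusted p = 0.152), under DESeq2 (adjusted p = 0.0546) and with lymphatic cells left out (1.62, adjusted p = 0.0600, edgeR). It also lost it at resolution 0.4, with no alignment, with at most 10% mitochondrial UMIs and with doublets left out (adjusted p of 0.0506 to 0.0777, edgeR), and it held in 8 of 16 alternatives.

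**Figure D4:**
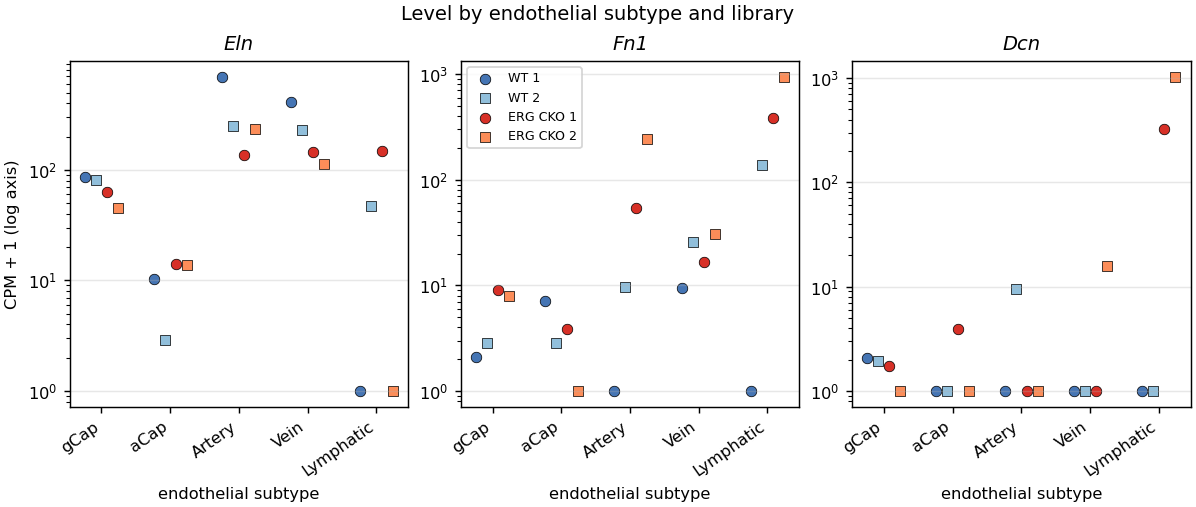
CPM + 1 on a log axis (y) of Eln, Fn1 and Dcn in 5 EC subtypes (x), with 1 point per library. Eln is highest in arteries and veins, Fn1 in the libraries labelled ERG CKO is highest in lymphatic and arterial ECs, and Dcn reaches 326 and 1027 CPM in lymphatic ECs of ERG CKO 1 and 2, which number 8 and 3 cells.

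Dcn in ECs came from 1, 3, 23 and 14 UMIs and was not called (2.83, SE 0.60, adjusted p = 0.0501, edgeR). Its p is read as a description, since the gene passed the filter through the libraries labelled ERG CKO only. Read in the same way, the estimate was 2.86 with the replicate number as a block (adjusted p = 0.0192, edgeR). It was 2.84 with no filter (adjusted p = 0.0022, edgeR). The ratio of ERG CKO to WT UMIs per total was 7.61 (exact 95% interval 2.73 to 29.4, counting error only). Lymphatic ECs held 11 and 12 of these UMIs in ERG CKO 1 and 2 and none in WT (0 UMIs in 7 and 7 cells), and in ERG CKO 2 a single cell held 11 of the 14 Dcn UMIs. Outside lymphatic ECs the counts were 1, 3, 12 and 2 UMIs, a ratio of 2.87 (0.902 to 12.0). The 5 collagen chains among the 9 genes were at most 9.98 CPM in ECs of every library. Col3a1 was at 1.46 and 2.80 against 9.98 and 4.16 CPM (1.73, SE 0.58, adjusted p = 0.181), Col5a1 at 1.46 and 4.35 against 6.29 and 6.06 CPM (1.01, SE 0.51, adjusted p = 0.401) and Col1a2 at 3.28 and 6.21 against 7.59 and 4.16 CPM (0.31, SE 0.47, adjusted p = 0.830, edgeR). In ERG CKO 1, 1 cell held 22 of the 46 Col3a1 UMIs, 1 held 17 of the 31 Col1a1 UMIs and 1 held 13 of the 35 Col1a2 UMIs. Mfap4 was at 18.6 and 11.8 against 26.7 and 16.3 CPM, which overlapped (0.51, SE 0.32, adjusted p = 0.512, edgeR).

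Fibroblast markers in ECs summed to 999.8 and 721 CPM in WT against 1599 and 2347 CPM in the libraries labelled ERG CKO. Of these sums Scn7a, which was also among the leading genes of an EC cluster, made up 847 and 629 against 1386 and 2131 CPM. The other 11 markers summed to 153 and 91.3 against 213 and 216 CPM and went in different directions. Limch1 (70.0 and 44.4 against 129 and 125 CPM), Pi16 (9.48 and 5.59 against 11.9 and 41.3 CPM) and Pdgfra (2.55 and 1.55 against 6.51 and 3.03 CPM) were higher in both libraries labelled ERG CKO. Inmt overlapped, at 45.2 and 25.5 against 36.01 and 27.6 CPM. Tcf21 alone was lower in both, at 4.37 and 2.48 against 2.39 and 1.51 CPM. Stress genes summed to 21679 and 23252 against 17842 and 17477 CPM, platelet markers to 77.3 and 143 against 322.5 and 186 CPM, and erythroid markers to 36.5 and 53.7 against 1549 and 2252 CPM. EC markers themselves summed to 17980 and 19116 against 14968 and 16136 CPM. ECs of the groups also lay unequally in clusters. A cluster led by Iigp1 and Gpihbp1 held 268 and 314 cells in WT against 183 and 71, and 1 led by Emcn held 107 and 108 against 254 and 180. The part of these measures in the EC values was not tested.

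Further matrix genes were called in ECs. Of those called higher, Has2, Tgfbi, Col13a1 and Efemp1 passed the filter through the libraries labelled ERG CKO only, so their values are given without a test. Has2 (hyaluronan synthase) had 0, 1, 24 and 51 UMIs. Tgfbi was at 3.28 and 3.11 against 94.4 and 216 CPM, Col13a1, a transmembrane collagen, at 2.19 and 0.621 against 29.5 and 11.4 CPM, and the fibulin Efemp1 at 3.28 and 3.11 against 24.9 and 12.9 CPM. Both groups were over the filter level for Ctgf (connective tissue growth factor), at 68.5 and 47.2 against 377 and 174 CPM (2.23), the prolyl isomerase Fkbp10 at 9.84 and 9.32 against 27.1 and 27.6 CPM (1.47) and Fbln2 at 14.9 and 14.6 against 34.3 and 34.1 CPM (1.17), with adjusted p of 0.0150 to 0.0230 (edgeR). Pcolce2, an enhancer of procollagen processing, fell, at 60.9 and 70.8 against 22.3 and 28.0 CPM (−1.45, SE 0.17, adjusted p = 0.00826, edgeR). By list, calls higher and lower were 2 and 1 of 14 elastic fibre genes and 1 and 0 of 5 small leucine-rich proteoglycans. They were 1 and 1 of 23 processing genes and 5 and 0 of 15 provisional matrix genes, beside 3.22% called over all genes tested. The elastic fibre count includes Efemp1, and the provisional matrix count includes Has2 and Tgfbi, which passed the filter through the libraries labelled ERG CKO only. Among 3 other interstitial collagens the 1 call was Col13a1, which passed in the same way. These counts are read as a description. None of the 4 fibrillar collagens tested was called in edgeR.

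**Figure D5:**
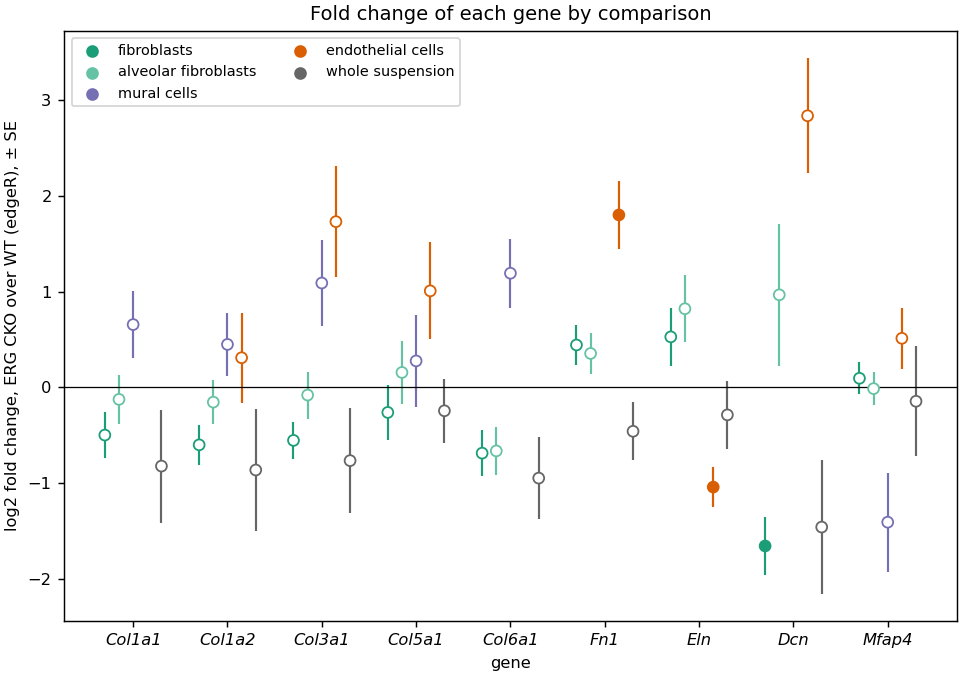
Log2 fold change, ERG CKO over WT, with its SE (y) of each gene (x) in 5 comparisons. Filled points passed an adjusted p of 0.05 in edgeR, which were Dcn in fibroblasts and Fn1 and Eln in ECs. A missing point did not pass the filter on low counts.

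The effect in fibroblasts was tested against the effect in ECs of the same libraries. Of 11120 genes, 84 differed (0.755%, edgeR), and of the 9 matrix genes 3 did. Dcn had estimates of −1.65 in fibroblasts and 2.83 in ECs, a difference of −4.48 on the log2 scale (SE 0.48, adjusted p = 0.000381, edgeR), with an EC side of 41 UMIs. In this joint fit all 9 genes were over the filter level in the 4 fibroblast libraries. In ECs Dcn was over it in 0 of 4 libraries, Col3a1 in 1 and Eln in 4. No fit of the difference left lymphatic ECs out, and outside these cells the EC ratio of Dcn UMIs was 2.87 (0.902 to 12, counting error only). Eln differed the other way, by 1.55 (SE 0.29, adjusted p = 0.0227, edgeR), with an EC fall and a fibroblast estimate above 0. Col3a1 differed by −2.31 (SE 0.49, adjusted p = 0.0466, edgeR). Over 12 alternatives Dcn and Eln were called in all 12 and Col3a1 in 9, losing its call without WT 1 (−1.81, adjusted p = 0.134), without ERG CKO 1 (−1.34, adjusted p = 0.424, edgeR) and with mixed subclusters left out (−1.74, adjusted p = 0.0972). Fn1 was not called (−1.30, SE 0.36, adjusted p = 0.174, edgeR), and in 5 of 12 alternatives it was.

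Summed over all cells, where fewer cells of a type and less RNA per cell cannot be told apart, no gene of 14154 was called (0%, edgeR), with 1077 at an unadjusted p under 0.05 and 155 called by DESeq2. Of the 9 matrix genes 0 were called, by edgeR or by DESeq2, and all 9 estimates lay below 0, with a median of −0.76 beside 0.00 over all genes. The median was −0.07 without WT 1, −1.203 without WT 2, −1.55 without ERG CKO 1 and −0.23 without ERG CKO 2. Col1a1 was at 62.05 and 23.8 CPM in WT against 34.97 and 12.6 CPM, Col3a1 at 76.9 and 34.1 against 47.0 and 17.3 CPM and Fn1 at 159 and 86.9 against 105 and 72.5 CPM. In each of these genes the groups overlapped, with ERG CKO 1 between the WT libraries. Dcn did not overlap, at 76.5 and 80.4 against 47.8 and 8.52 CPM (−1.46, SE 0.70, adjusted p = 0.738, edgeR).

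Of all cells, fibroblasts were 5.96% and 3.49% in WT against 5.72% and 1.40% in the libraries labelled ERG CKO, which overlapped (exact two-sided permutation p = 0.667). Mural cells were 3.14% and 2.28% against 1.32% and 0.756%, lower in both (exact permutation p = 0.3333, 0.667 adjusted over the 3 shares). With subclusters carrying EC transcripts left out, the mural shares were 1.74% and 1.76% against 1.198% and 0.784%. ECs were 25.8% and 32.5% against 23.5% and 26.6% (exact permutation p = 0.667).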

How the data were processed

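Whole-lung suspensions of 2 WT and 2 ERG CKO mice were dissociated with Liberase and DNase, freed of red cells, captured on the 10x GemCode platform and sequenced on a NextSeq 500. The authors deposited raw UMI counts per gene and cell, 1 matrix of 20076 genes and 9363 cells, made with Cell Ranger 3.1.0 on mm10 per the submitters' processing notes, and the annotation release is not given in the sources used here. No cell had fewer than 500 UMIs or 300 genes, and mitochondrial UMIs reached 49.2%. Gene positions and promoters are from RefSeq on GRCm38.p6, the build that mm10 follows. Groups were taken from the sample labels.

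Cell annotations of the study were not used here. Cells were clustered in Seurat 5.3.0 (2000 variable genes without matrix genes, Erg and sex-linked genes, CCA alignment, 30 dimensions, resolution 0.8). A cluster was named from at least 3 markers detected in at least 10% of its cells at a log2 fold of at least 1 (0.5 for EC subclusters, resolution 0.6, 20 dimensions). Fibroblast and mural subclusters (15 dimensions) were named against all cells outside the class, a choice made after seeing the data. Names are thus rebuilt, and results that differ from the study's may stem from them. Scrublet (scanpy 1.11.5) called 60 doublets (0.641%), which were kept, and 7 barcodes occurred in more than 1 library.

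Counts were summed per library and class, since the study's comparison cell by cell takes cells as replicates, and tested with edgeR 4.0.16 in R 4.3.3 (TMM, filterByExpr, quasi-likelihood, Benjamini-Hochberg over all genes tested, call at an adjusted p of at most 0.05). SE is the size of the log2 fold change over the square root of F. The interaction of class and genotype had library as a block. A subtype was tested where each library held 10 cells, so adventitial and myofibroblast-like cells were not. The edgeR steps were tested on simulated data with known folds, and the DESeq2 1.42.0 step was not. Replicates differed beyond sampling noise (chi-square per degree of freedom 15.9 in WT and 17.4 in ERG CKO). Intervals of ratios are exact and cover counting error only.

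Genes named were the 9 members, Acta2, Tagln, Ltbp2 and Tnc, and from lists of related matrix genes up to 10 with the largest fold among those called. Col2a1 and Col11a1 are among the listed genes not found in the matrix. The members and lists were chosen with earlier results of these data known. Alternatives were DESeq2 and its size factors, no filter on low counts, a replicate block, each library left out, resolution 0.4, no alignment, at most 10% mitochondrial UMIs, doublets left out and, for each gene, its highest cell left out. Leaving out mixed subclusters, lymphatic cells or cells under 1000 UMIs, and the highest cells in the interaction, was chosen after seeing the data. Mixed subclusters were those with EC transcripts in fibroblasts and mural cells, and those with platelet, B-cell or T-cell transcripts in ECs. Fibroblast and mural subclusters that carried markers of other lineages were kept. The count of called activation genes in ECs is not reported here.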

Additional observations from a re-analysis of the deposited data

Results flagged for a closer look

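For 3 of the 9 genes the effect differed between fibroblasts and ECs of the same 4 libraries by the test of that difference (edgeR). The difference, fibroblast effect minus EC effect on the log2 scale, was −4.48 for Dcn, 1.55 for Eln and −2.31 for Col3a1. In the classes apart, Dcn had −1.65 in fibroblasts and 2.83 in ECs, Eln 0.53 and −1.04, and Col3a1 −0.55 and 1.73. The EC side of Dcn rested on 41 UMIs and that of Col3a1 on 70 UMIs, of which 22 lay in 1 cell, whereas Eln had 987 UMIs in ECs. With the cell holding most UMIs of each gene left out in each class and library, all 3 were still called. The difference was not tested with lymphatic ECs left out. No test for a library far from the rest of its group was run, since the groups held 2 libraries.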

How the results depend on the processing

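Of the values of the 9 genes under the alternatives, 559 kept direction and side of the threshold, 20 lost a call, 19 gained one and 19 changed sign. The counts of genes called moved more, with mixed subclusters taken only in the sense defined above. In fibroblasts 28 genes were called by DESeq2, 199 with no filter on low counts, 118 with each gene's highest cell left out and 31 with mixed subclusters left out, and 3 to 137 with 1 library left out. Of the 9 genes 0 were called by DESeq2, with at most 10% mitochondrial UMIs and with mixed subclusters left out (where Col5a1 was 0.07), and 0 to 3 with 1 library left out. In mural cells 1 gene was called by DESeq2, at resolution 0.4 and with cells of at least 1000 UMIs, 20 with no filter, 5 with no alignment, 3 with at most 10% mitochondrial UMIs, 4 with the highest cell left out, 11 with mixed subclusters left out and 8 to 64 with 1 library left out (0 to 1 of the 9). In ECs 1096 genes were called with no filter and 29 to 786 with 1 library left out. Of the 9 genes 4 were called there with no filter, 1 by DESeq2, at resolution 0.4, with no alignment, with at most 10% mitochondrial UMIs and with doublets, mixed subclusters or lymphatic cells left out, and 0 to 3 with 1 library left out. Col1a2 in ECs was −0.06 without WT 1 and ran from −0.28 without ERG CKO 1 to 0.84 without WT 2. In the whole suspension 155 genes were called by DESeq2, 137 with no filter and 1 to 25 with 1 library left out (0 to 1 of the 9). There, without WT 1, Eln was 0.19 and Mfap4 0.38, and without ERG CKO 2 Eln was 0.05, Mfap4 0.46 and Col5a1 0.10, against lowest values of −0.72, −1.22 and −0.74 without ERG CKO 1. In alveolar fibroblasts 21 genes were called by DESeq2, 180 with no filter and 3 to 197 with 1 library left out (0 to 2 of the 9). Without ERG CKO 1, Col1a1 was 0.25, Col1a2 0.03 and Col3a1 0.27 there (lowest −0.52, −0.35 and −0.47, without ERG CKO 2 or WT 2), without WT 1 Col1a2 was 0.09, Col3a1 0.04 and Mfap4 0.07, and without ERG CKO 2 Dcn was −1.10 and Mfap4 0.00 (2.25 without ERG CKO 1 and −0.10 without WT 2). For the difference between fibroblasts and ECs 235 genes were called with no filter (5 of the 9), 176 with mixed subclusters left out (Col1a2 0.72), 244 with the highest cell left out and 77 to 353 with 1 library left out. Without ERG CKO 1, Col1a1 was 0.60 and Col6a1 0.37 (lowest −2.68 without WT 2 and −1.46 without ERG CKO 2). The share of fibroblasts, −1.17 points in all libraries, was −3.32 points without ERG CKO 1, 0.0712 points without WT 1 and 0.99 points without ERG CKO 2. The cause was not tested. Low counts limit the 9 genes in mural cells of ERG CKO 2 (29946 UMIs in all) and the collagens of ECs.

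Replicate numbers are shared by the groups, and same-numbered libraries deviated together with a correlation of 0.00306 in fibroblasts, 0.186 in mural cells, 0.295 in ECs and 0.234 in the whole suspension, and the labels tie no number to a shared litter, batch or day, so the numbers were not taken as pairs, although the number also separates the Xist-expressing from the other libraries. With the replicate block, 23 genes were called in fibroblasts, 26 in mural cells, 935 in ECs and 1 in the whole suspension. In fibroblasts 0 of the 9 genes were called (Dcn, −1.63, adjusted p = 0.216, edgeR). In ECs Dcn had an estimate of 2.86 (adjusted p = 0.0192, edgeR). That p is read as a description, since Dcn passed the filter there through the libraries labelled ERG CKO only. With 2 libraries a group the block rests on 2 pairs.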

Other observations

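Alveolar macrophages and monocytes held much of the Fn1 RNA of the suspension. In monocytes Fn1 was at 361 and 333 CPM in WT 1 and 2 against 227 and 234 CPM in ERG CKO 1 and 2, lower in both libraries labelled ERG CKO. In alveolar macrophages it was at 383 and 173 against 223 and 174 CPM, which overlapped. Interstitial macrophages held 69, 0, 113 and 0 Fn1 UMIs, so that the gene was counted in replicate 1 of each group and in neither replicate 2. These myeloid values were not tested.

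Aspn, called lower in fibroblasts, was at 14.1 and 8.04 against 118 and 66.8 CPM in mural cells, from 8, 2, 19 and 2 UMIs. It was over the filter level there in the libraries labelled ERG CKO only, and it was picked after its values were seen, so no test is given.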
